A study of Saccharomyces cerevisiae with 20 samples.

Results

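The genes described here encode the proteins of the large subunit of the cytosolic ribosome in budding yeast (Saccharomyces cerevisiae). They were found by their RefSeq symbols, RPL followed by a number with or without a final A or B, and RPP0, RPP1A, RPP1B, RPP2A and RPP2B of the ribosomal stalk. The symbol rule found 82 of 6106 transcripts counted. One of them, RPP1, is annotated by RefSeq as a subunit of ribonuclease P and not as a ribosomal protein, so it was left out of all counts and is given once at the end. The other 81 genes are called large-subunit genes. They comprise 35 pairs of A and B genes (70 genes) and 11 genes with no second copy.

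RNA came from BY4741 yeast (MATa his3Δ1 leu2Δ0 met15Δ0 ura3Δ0) grown in rich medium, either xrn1-H41A or WT. The xrn1-H41A strain carries a substitution in the exoribonuclease Xrn1 that impairs removal of NAD caps and leaves 5′ to 3′ decay of RNA intact, per the study's methods. From each strain, 3 biological replicates were sequenced after NADcapPro, after SPAAC and as standard RNA-seq, which gives 6 groups and 18 libraries. SPAAC replaces the nicotinamide of an NAD cap with an azide through ADPRC, attaches biotin to it by copper-free click chemistry and recovers the RNA on streptavidin. NADcapPro adds treatment with Dcs1, which hydrolyses m7G caps, before the same reaction. The methods name polyA RNA as the input of NADcapPro and SPAAC, and the input of the standard RNA-seq is not given in the sources used here.

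Ribosomal protein genes are among the most highly transcribed genes of growing yeast, and their mRNAs carry m7G caps and are translated heavily. Many were kept in 2 copies after the genome of an ancestor was duplicated, and the A and B copies usually encode the same or nearly the same protein from different loci and with different introns and flanking sequences. A large share of all introns in yeast lies in this gene family. An NAD cap is placed at the 5′ end of an RNA in place of the m7G cap, and Xrn1 is 1 of the enzymes known to remove it in yeast.

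Because most A genes have a near copy, the counts of such a pair can be told apart only through reads that cover bases at which the copies differ. The deposited reference holds coding sequence, with no untranslated regions. The coding sequences of the 32 pairs of equal length were compared base by base, with no alignment. Matching bases ran between 46.4% (RPP1A and RPP1B) and 99.4%, with a median of 93.7%. Without alignment, the lowest value can understate the identity of that pair. The translated sequences were identical in 12 of the 35 pairs. The share of a transcript's stretches of 31 bases (the k-mer length assumed for Kallisto) that occur in no other transcript ranged from 12.3% to 100% over the 81 genes, with a median of 82.6%. It was under 20% for 8 genes, both copies of RPL1, RPL4, RPL35 and RPL41, and the split between the copies of these pairs is uncertain. The following coding stretches, read from assembly R64, show the 60 bases with the most differences in 6 of the pairs whose copies behaved most differently, and the whole coding sequence of RPL41, whose copies differ at a single base. Capitals mark the bases that differ between the A and the B copy, and each stretch is printed 5′ to 3′ on the strand of its gene.
RPL21A: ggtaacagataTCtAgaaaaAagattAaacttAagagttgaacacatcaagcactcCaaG
RPL21B: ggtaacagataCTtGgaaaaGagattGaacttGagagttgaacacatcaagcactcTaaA
RPL8A: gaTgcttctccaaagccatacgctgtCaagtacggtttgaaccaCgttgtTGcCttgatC
RPL8B: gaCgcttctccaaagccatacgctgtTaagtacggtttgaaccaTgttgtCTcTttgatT
RPL15A: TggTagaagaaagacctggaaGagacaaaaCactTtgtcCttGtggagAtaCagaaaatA
RPL15B: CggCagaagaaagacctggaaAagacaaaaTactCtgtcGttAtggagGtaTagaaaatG
RPL40A: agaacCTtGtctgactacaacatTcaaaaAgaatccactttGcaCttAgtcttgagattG
RPL40B: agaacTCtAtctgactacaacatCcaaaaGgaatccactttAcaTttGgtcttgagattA
RPL14A: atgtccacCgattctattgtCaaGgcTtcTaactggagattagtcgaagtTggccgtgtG
RPL14B: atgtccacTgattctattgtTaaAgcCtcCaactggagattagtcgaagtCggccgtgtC
RPL9A: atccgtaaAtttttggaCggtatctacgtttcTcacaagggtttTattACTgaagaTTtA
RPL9B: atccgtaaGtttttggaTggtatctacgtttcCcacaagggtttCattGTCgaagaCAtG
RPL41A: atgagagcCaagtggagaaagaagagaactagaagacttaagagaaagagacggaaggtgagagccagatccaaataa
RPL41B: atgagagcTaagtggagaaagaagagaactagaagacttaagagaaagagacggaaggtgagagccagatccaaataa

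All of these stretches lie within 1 exon. The RPL21 stretches are at chrII:606898-606957 on the plus strand (RPL21A) and chrXVI:407297-407356 on the plus strand (RPL21B), where 8 of the 60 bases differ. Over the 483 coding bases of that pair 29 differ and 76.8% of the 31-base stretches are the gene's own. The RPL8 stretches are at chrVIII:35597-35656 and chrXII:48201-48260, both on the minus strand, with 7 differences. The RPL15 stretches are at chrXII:201977-202036 and chrXIII:509735-509794, both on the minus strand, with 10 differences. For RPL40 they are at chrIX:69301-69360 on the plus strand and chrXI:618164-618223 on the minus strand, with 9 differences. For RPL14 they are at chrXI:431906-431965 and chrVIII:104277-104336, both on the plus strand, with 7 differences. For RPL9 they are at chrVII:227757-227816 on the minus strand and chrXIV:500194-500253 on the plus strand, with 10 differences. RPL41A (chrIV:130407-130484) and RPL41B (chrIV:221724-221801), both on the minus strand, encode a peptide of 25 residues, and 18.8% of their 31-base stretches are their own.

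The large-subunit genes differed from the average gene in structure. Of the 81, 53 (65.4%) contain an intron within the coding sequence, against 4.43% of the 6098 transcripts found in the reference, and RPL7A and RPL7B contain 2 introns each. Their coding length had a median of 450 bases (78 to 1164), against 1182 bases over all transcripts. Total counts were 13038320 to 33816015 per library, and all values below are relative to the total of a library, so absolute amounts of RNA are not known. All 81 genes were counted in every library, with at least 500 counts, the lowest being RPL15B in a library of RNA-seq from xrn1-H41A, so that counting noise was small beside the differences given here. The deleted genes matched the labels, with 0 to 4 counts for LEU2, URA3 and MET17 (the gene also named MET15). HIS3, whose deletion is partial, had at least 1239 counts. Of the a-cell genes, MFA1 had at least 631 counts, MFA2 1876, STE2 5895 and BAR1 1711. Of the alpha-cell genes, MF(ALPHA)1 had 1 to 62 counts, STE3 12 to 286, MF(ALPHA)2 119 to 1923 and SAG1 298 to 5424. The alpha-cell genes were thus not uniformly low, and the mating type rests on the label. Gene-level counts cannot show the substitution in xrn1-H41A.

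In TPM, which corrects for length, levels in RNA-seq spread widely within the family. The median over the 81 genes was 2170 TPM in xrn1-H41A RNA-seq and 2300 TPM in WT RNA-seq. RPL15B was the lowest in each of the 6 groups, with 106.6 TPM in NADcapPro, 40.2 TPM in SPAAC and 43.5 TPM in RNA-seq of xrn1-H41A, and 137.5, 47.9 and 52.5 TPM in the same assays of WT. RPL41A was the highest in each group, at 15709 TPM in xrn1-H41A RNA-seq and 21999 TPM in WT RNA-seq, although TPM of so short a transcript depends strongly on the effective length assigned to it. The other genes lay between these, with quartiles of 1677 and 3343 TPM in xrn1-H41A RNA-seq and of 1826 and 3533 TPM in WT RNA-seq.

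To ask how much of each library the family took up, its counts were summed. In xrn1-H41A, large-subunit genes made up 7.55%, 7.48% and 7.50% of all counts in NADcapPro, 13.2%, 13.1% and 13.4% in SPAAC, and 10.03%, 10.5% and 10.1% in RNA-seq. In WT they made up 11.6%, 11.9% and 11.9% in NADcapPro, 14.1% in each SPAAC library, and 10.7%, 10.9% and 10.9% in RNA-seq. No 2 of the 6 groups overlapped. The exact two-sided permutation test gave p = 0.1 in each of the 7 comparisons of groups described below, the smallest that 3 libraries against 3 allow, so none can pass 0.05. Small-subunit genes gave the same order of group means, but their NADcapPro and RNA-seq libraries of WT overlapped (7.86% and 7.77% on average, exact permutation p = 0.3).

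**Figure D1:**
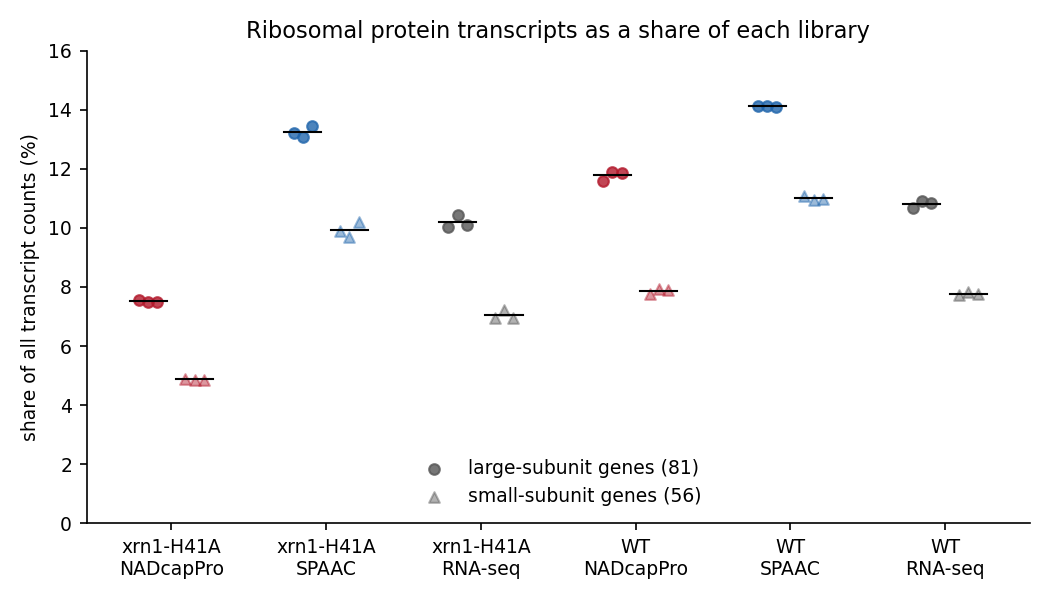
Share of all transcript counts (%) taken by the 81 large-subunit genes (circles) and the 56 small-subunit genes (triangles) in each library of the 6 groups; horizontal lines are group means. Large-subunit genes averaged 7.51% in NADcapPro, 13.2% in SPAAC and 10.2% in RNA-seq of xrn1-H41A, and 11.8%, 14.1% and 10.8% in the same assays of WT.

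NADcapPro was first compared with RNA-seq, which asks whether transcripts of the family are over- or under-represented among the RNAs recovered by NADcapPro. Recovery without ADPRC was not taken into account, because those libraries could not be tied to a strain. In xrn1-H41A the family was depleted as a whole, while in WT it was spread on both sides of no change. Calls used edgeR's quasi-likelihood test with Benjamini-Hochberg adjustment over all transcripts tested, and required a change of at least 2-fold (1 on the log2 scale) with the adjusted p no larger than 0.01. In xrn1-H41A, 30 large-subunit genes fell and 3 rose, against 9.87% and 14.3% of the 6046 transcripts tested, and the median log2 fold change was -0.76, against 0.02 over all transcripts. In WT, 11 fell and 9 rose, against 9.85% and 13.1% of 6020 transcripts, with a median of -0.12, against 0.01 over all. The shares called in WT, 13.6% lower and 11.1% higher, were thus close to the background. Of the genes called lower, 11 were shared by both strains, which is 36.7% of the 30 in xrn1-H41A and 100% of the 11 in WT. RPL21B, RPL15B and RPL22B rose in both.

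These genes are short, and the counts depended on how length was treated. With the trend of each comparison on transcript length removed, 50 genes fell and 1 rose in xrn1-H41A and 27 fell and 3 rose in WT. With scaling by library totals alone the median in WT was 0.02, against 0.15 over all transcripts. Its sign thus depends on the scaling, while it lay below the median of all transcripts under either scaling.

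**Figure D2:**
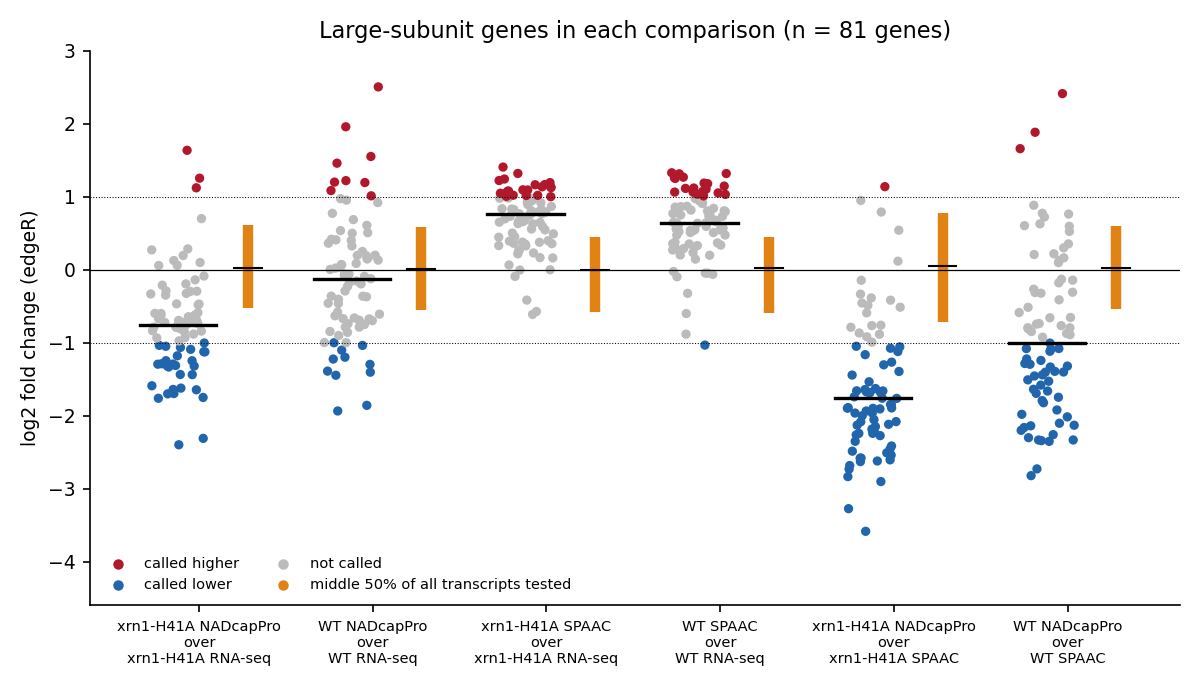
Log2 fold change (edgeR) of each of the 81 large-subunit genes (1 point per gene, red called higher, blue called lower, grey not called) in 6 comparisons, with black lines at their medians and orange bars between the quartiles of all transcripts tested. The medians are -0.76 and -0.12 for NADcapPro over RNA-seq, 0.77 and 0.64 for SPAAC over RNA-seq and -1.76 and -1.01 for NADcapPro over SPAAC, in xrn1-H41A and WT in that order.

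The gene that rose most in NADcapPro was RPL21B, which encodes eL21, a protein of the subunit body. Values per library are given as CPM, counts scaled to a common library total and normalised by TMM over all 18 libraries. In xrn1-H41A, RPL21B had 2262, 2293 and 2252 CPM in NADcapPro, against 728.1, 784.3 and 752.6 CPM in RNA-seq. In WT it had 5617, 5774 and 5526 CPM in NADcapPro, against 970.9, 992.5 and 1017 CPM in RNA-seq. The groups did not overlap in either strain, and the log2 fold change was 1.64 ± 0.03 (SE, n = 3 per group, edgeR adjusted p = 3.43e-15) in xrn1-H41A and 2.50 ± 0.03 (edgeR adjusted p = 2.47e-16) in WT. Its partner RPL21A did not pass the threshold in either strain, with log2 fold changes of -0.79 ± 0.03 and 0.00 ± 0.03.

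RPL29 encodes eL29, a small protein that yeast can grow without. In xrn1-H41A it had 995.8, 916.6 and 901.6 CPM in NADcapPro, against 582.7, 635.9 and 571.8 CPM in RNA-seq. In WT it had 2825, 3062 and 3137 CPM in NADcapPro, against 726.8, 776.3 and 817.6 CPM in RNA-seq. It was higher in every NADcapPro library of both strains, and passed the 2-fold threshold in WT (log2 fold change 1.958 ± 0.04, edgeR adjusted p = 7.81e-14) but not in xrn1-H41A (0.70 ± 0.04).

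RPL15B is the minor copy of eL15, a protein that joins the subunit early in its assembly. In xrn1-H41A it had 76.1, 74.6 and 77.1 CPM in NADcapPro, against 33.3, 33.9 and 31.2 CPM in RNA-seq. In WT it had 137.7, 131.6 and 142.2 CPM in NADcapPro, against 45.4, 45.1 and 49.4 CPM in RNA-seq. The log2 fold changes were 1.25 ± 0.05 (edgeR adjusted p = 2.39e-12) and 1.55 ± 0.04 (edgeR adjusted p = 4.87e-13). RPL15A, the copy that supplies nearly all of the mRNA, fell instead, with log2 fold changes of -1.25 in xrn1-H41A and -1.22 in WT.

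RPL22B is the lesser expressed copy of eL22, whose protein is known to bind the intron of its own pre-mRNA. It had 562.3, 558.8 and 520.4 CPM in NADcapPro of xrn1-H41A, against 258.0, 268.3 and 253.1 CPM in RNA-seq. In WT it had 329.0, 328.8 and 327.3 CPM in NADcapPro, against 116.5, 123.8 and 117.8 CPM in RNA-seq. It rose by 1.12 ± 0.04 (edgeR adjusted p = 6.26e-13) and 1.46 ± 0.04 (edgeR adjusted p = 2.51e-13) on the log2 scale. With the length trend removed, the rises of RPL15B (0.94) and RPL22B (0.70) in xrn1-H41A no longer reached 2-fold.

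At the other end, RPP1A and RPL8A were the most depleted. RPP1A encodes 1 of the acidic proteins of the stalk, and in xrn1-H41A had 248.8, 256.3 and 269.6 CPM in NADcapPro, against 1300, 1375 and 1303 CPM in RNA-seq. In WT it had 470.2, 489.0 and 499.1 CPM in NADcapPro, against 1889, 1883 and 1810 CPM in RNA-seq. The log2 fold changes were -2.31 ± 0.04 (edgeR adjusted p = 3.98e-16) and -1.94 ± 0.03 (edgeR adjusted p = 4.35e-15).

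RPL8A encodes eL8, an early assembling protein. In xrn1-H41A it had 129.5, 128.7 and 129.2 CPM in NADcapPro, against 676.1, 714.0 and 723.2 CPM in RNA-seq, and in WT 292.8, 308.7 and 312.6 CPM in NADcapPro, against 1116, 1108 and 1093 CPM in RNA-seq. It fell by 2.40 ± 0.03 on the log2 scale in xrn1-H41A (edgeR adjusted p = 1.41e-16) and by 1.86 ± 0.03 in WT (edgeR adjusted p = 6.46e-15), again with no overlap of groups. RPL31A followed in xrn1-H41A with -1.76 ± 0.04 (edgeR adjusted p = 3.14e-15) and RPL42A in WT with -1.45 ± 0.04 (edgeR adjusted p = 1.02e-12).

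By role, the genes of the stalk, which recruits translation factors, were below 0 in both strains. RPP0, its base, had -1.07 in xrn1-H41A and -0.63 in WT. Of the acidic stalk proteins, RPP1B had -1.32 and -0.79 and RPP2B had -1.65 and -0.74 in the same strains, and RPP2A passed the threshold in neither, with -0.65 and -0.36. Of the 5 stalk genes, 4 were therefore called lower in xrn1-H41A and 1, RPP1A, in WT. In the same strains 37.0% and 13.6% of the whole family were called lower, and 9.87% and 9.85% of all transcripts.

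The genes of the 5S rRNA particle did not move together. RPL11A was called higher in WT alone (1.20 ± 0.03), at 0.10 in xrn1-H41A, while RPL11B had -0.35 and 0.50, and RPL5, which has no second copy, had -0.98 and -0.36. Around the peptidyl transferase centre, RPL3 had -0.70 and -0.74 and RPL10, whose protein is among the last to join, had -1.30 and -1.0, of which only the first was called. Along the exit tunnel, RPL25 had -1.59 and -0.58 and RPL39, whose protein lines the tunnel wall, had -1.18 and -0.70, called in xrn1-H41A only.

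RPL28, the gene in which cycloheximide resistance mutations arise, had -0.69 and -0.67, and RPL30, whose protein regulates the splicing of its own pre-mRNA, had -0.14 and 0.61. None of these 4 values passed. The ubiquitin fusion gene RPL40A had 0.13 in xrn1-H41A and 1.01 in WT, where it was called, and RPL40B had -1.32, called, and -0.75. Without the first WT RNA-seq library RPL40A was at 0.95 and was not called. RPL41A had 0.06 and 0.51 and RPL41B had -0.29 and 0.77, all within 2-fold.

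SPAAC, which lacks the Dcs1 step, gave a different picture when set against RNA-seq. Most of the family was higher in SPAAC in both strains, though most genes by less than 2-fold. In xrn1-H41A, 22 genes rose and 0 fell, against 4.39% and 13.8% of the 5968 transcripts tested. In WT, 19 rose and 1, RPL41B, fell, against 4.77% and 15.9% of 5979. Medians were 0.77 and 0.64, against 0.00 and 0.02 over all transcripts. At an adjusted p of at most 0.01 with no limit on size, 74 of 81 genes were higher in xrn1-H41A, against 39% of all transcripts, and 71 of 81 in WT, against 39.9%. Of the genes called higher, 17 were shared, which is 77.3% of the 22 in xrn1-H41A and 89.5% of the 19 in WT.

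The count of 2-fold calls depended on the processing. With library totals alone 1 gene in xrn1-H41A and 3 in WT were called higher, and with the length trend removed 2 and 1. At any size, 55 genes were higher and 12 lower in xrn1-H41A and 58 and 12 in WT under library totals alone, with medians of 0.38 and 0.33, against -0.38 and -0.29 over all transcripts. With the length trend removed, 56 were higher and 15 lower in xrn1-H41A and 49 and 21 in WT, with medians of 0.36 and 0.23. DESeq2 called 0 genes lower in xrn1-H41A and 1 in WT, and 78 of the 81 genes had an unadjusted p under 0.05 in xrn1-H41A by edgeR.

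RPL38, a single gene encoding the small protein eL38, rose most in SPAAC. In SPAAC of xrn1-H41A it had 2377, 2255 and 2320 CPM, against 907.8, 976.0 and 904.8 CPM in RNA-seq, and 2932, 3087 and 3031 CPM in SPAAC of WT, against 1128, 1198 and 1262 CPM in RNA-seq. The log2 fold changes were 1.41 ± 0.04 (edgeR adjusted p = 2.14e-13) and 1.33 ± 0.04 (edgeR adjusted p = 9.70e-14). RPL1B, a copy of the mobile L1 stalk protein, had 1.32 ± 0.03 in xrn1-H41A and 1.31 ± 0.02 in WT. The other gene among the 3 largest rises was RPL2A, whose protein lies near the peptidyl transferase centre, in xrn1-H41A (1.24 ± 0.03) and RPL39 in WT (1.32 ± 0.03), which lay within the standard errors of RPL1B. RPL1A and RPL1B share most of their sequence, so the value for RPL1B is uncertain.

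RPL24B, RPL41B and RPL29 had the 3 lowest log2 fold changes of SPAAC over RNA-seq in both strains. RPL24B, a copy of eL24, which reaches across to the small subunit, had 819.5, 802.3 and 797.1 CPM in SPAAC of xrn1-H41A, against 1274, 1352 and 1306 CPM in RNA-seq. In WT it had 761.9, 794.5 and 791.5 CPM in SPAAC, against 1399, 1451 and 1462 CPM in RNA-seq. The groups did not overlap, but neither log2 fold change (-0.61 ± 0.03 and -0.88 ± 0.03) reached the threshold. RPL41B had -0.57 in xrn1-H41A and -1.03 in WT, and the value in WT was no longer called without the second WT RNA-seq library (-0.99). RPL29 had -0.42 and -0.60.

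Of the genes named by role, RPL10 (1.22 in xrn1-H41A and 1.19 in WT), RPL11B (1.02 and 1.12), RPL39 (1.19 and 1.32) and RPP1B (1.14 and 1.27) rose in SPAAC of both strains. RPL21A was called in xrn1-H41A only, with 1.05 and 0.97. RPP0 (0.73 and 0.73), RPL3 (0.79 and 0.64), RPL25 (0.66 and 0.59) and RPL30 (0.74 and 0.60) were within 2-fold. RPL5 (0.16 and -0.10) and RPL28 (-0.09 and -0.02) were nearest to 0 among these. The stalk genes RPP1A (0.36 and 0.27), RPP2A (0.83 and 0.57) and RPP2B (0.77 and 0.81) were not called.

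NADcapPro was also set against SPAAC, from which it differs by the Dcs1 step. Most large-subunit genes were lower in NADcapPro in both strains. In xrn1-H41A, 61 genes fell and 1 rose, against 17.8% and 18.7% of 6039 transcripts, with a median of -1.76, against 0.04 over all. In WT, 41 fell and 3 rose, against 11.3% and 13.3% of 6017, with a median of -1.01, against 0.02 over all. All 41 genes called lower in WT were among the 61 of xrn1-H41A, of which they make up 67.2%. With library totals alone the counts were 40 lower and 4 higher in xrn1-H41A and 22 lower and 11 higher in WT, since that scaling raised the median of all transcripts by 0.81 and 0.61. The medians of the family were then -0.96 and -0.40, and -1.56 and -0.87 with all 18 libraries in 1 fit.

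RPL8A fell most, with log2 fold changes of -3.59 ± 0.03 in xrn1-H41A (edgeR adjusted p = 2.14e-20) and -2.82 ± 0.03 in WT (edgeR adjusted p = 4.70e-22). RPL38 (-3.27) and RPL14B (-2.90) followed in xrn1-H41A, and RPL26A (-2.73) and RPP1A (-2.35) in WT. The genes that rose were RPL21B (1.14 ± 0.03 in xrn1-H41A and 1.88 ± 0.03 in WT) and, in WT alone, RPL29 (2.41 ± 0.04) and RPL41B (1.66 ± 0.03). RPL29 and RPL22B had 0.95 and 0.79 in xrn1-H41A, under the threshold. All 5 stalk genes fell in both strains, as did RPL3, RPL10, RPL25, RPL39 and RPL40B. In the whole family 75.3% of genes in xrn1-H41A and 50.6% in WT were called lower, against 17.8% and 11.3% of all transcripts. RPL5 (-1.30), RPL11B (-1.54) and RPL30 (-1.05) fell in xrn1-H41A, with -0.41, -0.77 and -0.14 in WT.

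Abundance in RNA-seq differed little between the strains. RPL22B was the single member past 2-fold, with 258.0, 268.3 and 253.1 CPM in xrn1-H41A, against 116.5, 123.8 and 117.8 CPM in WT (log2 fold change 1.12 ± 0.04, edgeR adjusted p = 1.34e-12). Thus 1 gene rose and 0 fell, against 7.69% and 2.53% of 5965 transcripts. DESeq2 also called 1 and 0, and 75 of 81 genes had an unadjusted p under 0.05. Small decreases were the rule, with 70 genes lower and 3 higher at any size, against 34.8% and 36.2% of all transcripts, and a median of -0.30. The lowest members were RPL41A (-0.68), RPL8A (-0.65) and RPL17B (-0.52), and the highest after RPL22B were RPL7B (0.33) and RPL4B (0.17). With library totals alone 41 were lower and 9 higher at any size.

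The log2 fold change of NADcapPro over RNA-seq, called NADcapPro enrichment here, was lower in xrn1-H41A than in WT across most of the family. The family was not enriched as a whole in WT (median -0.12), so for many genes a lower value means a stronger depletion. As an interaction of strain and assay over 12 libraries, 14 genes had a lower NADcapPro enrichment in xrn1-H41A and 0 a higher one, against 2.94% and 4.19% of 6059 transcripts, and 73 had an unadjusted p under 0.05. At any size 70 of 81 were lower, against 30.2% of all transcripts. The median difference was -0.65, against 0.05 over all transcripts. Small-subunit genes shifted alike, with a median of -0.62 and 49 of 56 lower at any size. DESeq2 called 17 lower and 0 higher, and edgeR called 8 lower with library totals alone and 9 with the length trend removed. The largest differences were in RPL23B (-1.36 ± 0.06, edgeR adjusted p = 6.61e-13), RPL27A (-1.27 ± 0.04, edgeR adjusted p = 3.45e-14) and RPL29 (-1.24 ± 0.07, edgeR adjusted p = 3.33e-11). RPL21B differed by -0.85 ± 0.04. Among the genes lowest in NADcapPro over RNA-seq, the difference was -0.36 for RPP1A, -0.53 for RPL8A, -0.18 for RPL42A and -0.85 for RPL31A. None of these reached 2-fold.

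In SPAAC the strain differences were small. Neither direction had a call among large-subunit genes (0 and 0), against 0.0998% higher and 0.566% lower of 6010 transcripts, and DESeq2 called 0 and 0 as well. At any size 9 genes were higher and 7 lower in xrn1-H41A, against 9.55% and 14% of all transcripts, and 32 genes had an unadjusted p under 0.05. The median was -0.01, and its sign changed with the scaling. The most negative was RPL22B (-0.46 ± 0.06) and the most positive RPL41B (0.37 ± 0.08).

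The order of genes was much alike in the strains. Across the 81 genes, the log2 fold changes of NADcapPro over RNA-seq in xrn1-H41A and in WT, which share no library, had a Spearman correlation of 0.87, and those of SPAAC over RNA-seq one of 0.96. Genes are not independent replicates, and these values are descriptions. In NADcapPro 77 of the 81 genes had a lower log2 fold change in xrn1-H41A than in WT, as the plot of the strains against each other shows.

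**Figure D3:**
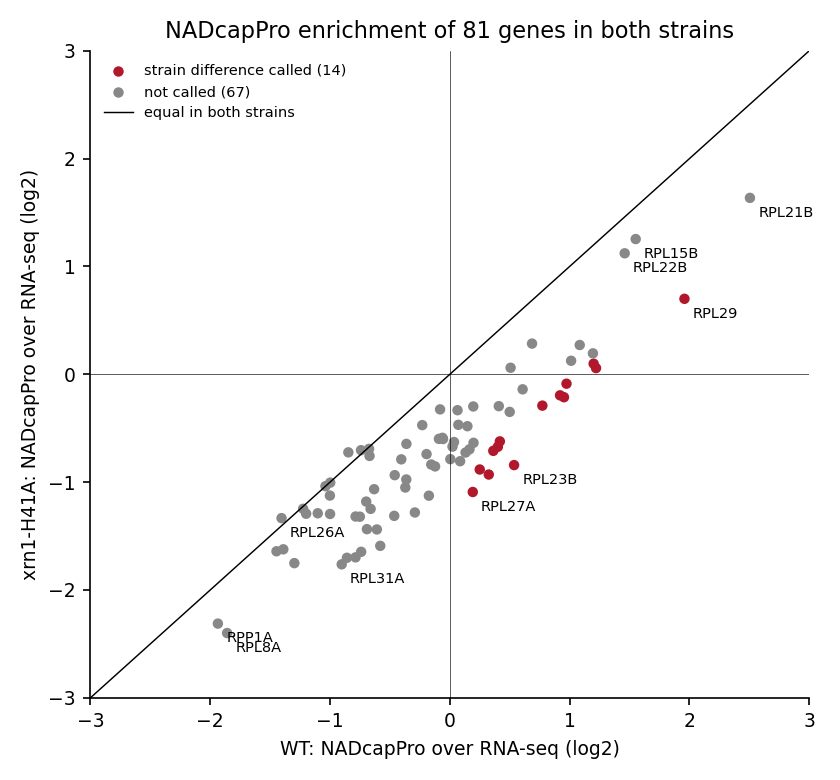
Log2 fold change of NADcapPro over RNA-seq of the 81 large-subunit genes in xrn1-H41A (y axis) and WT (x axis); red points are the 14 genes whose strain difference was called and the line marks equal values. Most points lie below the line, and RPL21B is the farthest to the upper right at 1.64 and 2.50.

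The copies of a pair were then compared within each library, as the log2 ratio of A to B counts, which does not depend on scaling between libraries. The ratio was tested by limma over 61 A and B pairs of the whole table, of which the large-subunit pairs are 35, with the same thresholds. In NADcapPro over RNA-seq, 9 large-subunit pairs differed in xrn1-H41A (25.7%, against 23% of all pairs) and 11 in WT (31.4%, against 29.5%), and 7 of these were shared in the same direction (77.8% of those in xrn1-H41A and 63.6% of those in WT). These shares lie near those of all pairs, but the large-subunit pairs supply 9 of the 14 calls in xrn1-H41A and 11 of the 18 in WT. The share of all pairs is therefore not a separate background, here or below. In NADcapPro over SPAAC they were 11 and 14 pairs, against 31.1% and 44.3% of all pairs, and all 11 pairs of xrn1-H41A were among the 14 of WT. Few pairs differed in SPAAC over RNA-seq, 1 in xrn1-H41A and 2 in WT, against 3.28% and 9.84%.

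**Figure D4:**
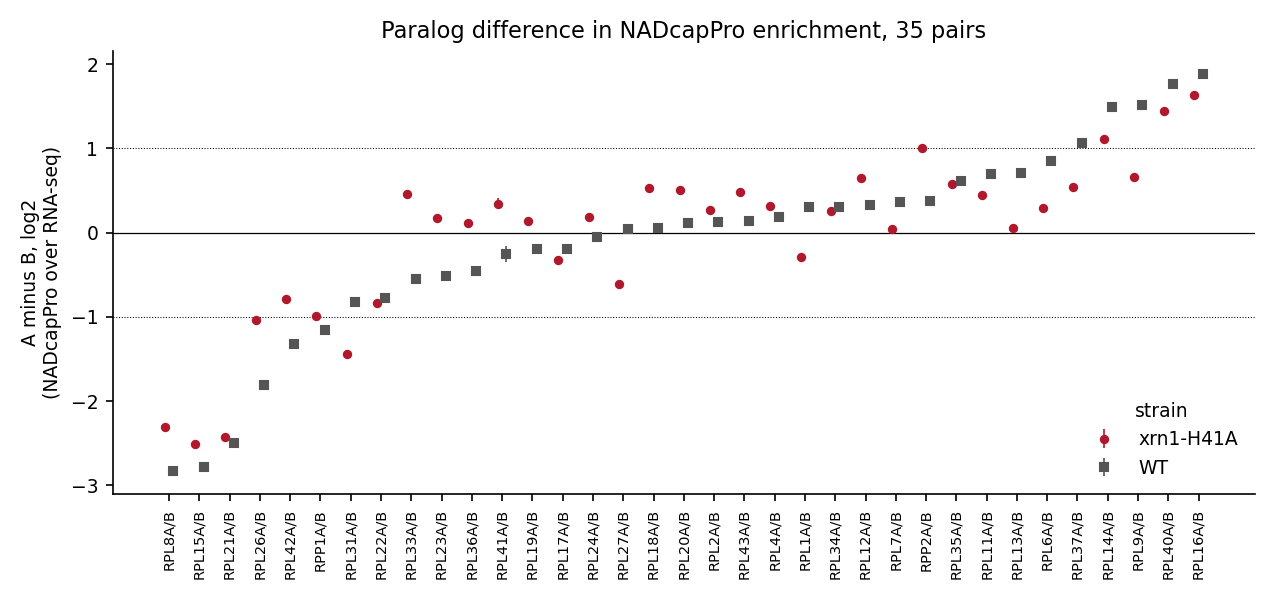
Difference between the A and the B copy in the log2 fold change of NADcapPro over RNA-seq for 35 pairs, in xrn1-H41A (red circles) and WT (grey squares); bars are standard errors from limma and dotted lines mark 2-fold. RPL8, RPL15 and RPL21 lie at the lower end (-2.31, -2.51 and -2.42 in xrn1-H41A) and RPL16 and RPL40 at the upper end (1.63 and 1.45).

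In 3 pairs the B copy was strongly favoured in NADcapPro. RPL8A supplied 6.81%, 6.68% and 6.51% of the counts of its pair in NADcapPro of xrn1-H41A, against 26.4%, 26.2% and 25.9% in RNA-seq. In WT it supplied 6.06%, 6.36% and 6.60% in NADcapPro, against 32.4%, 32.4% and 32.8% in RNA-seq. The log2 A to B ratio differed by -2.31 ± 0.02 (SE, limma adjusted p = 1.96e-12) and -2.83 ± 0.04 (limma adjusted p = 2.04e-14).

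RPL21A supplied 23.7%, 23.1% and 23.6% in NADcapPro of xrn1-H41A, against 62.5%, 62.3% and 61.7% in RNA-seq, and 21.0%, 21.8% and 21.8% in NADcapPro of WT, against 61.0%, 61.0% and 60.5% in RNA-seq. The major copy of the pair was thus RPL21B in NADcapPro and RPL21A in RNA-seq. The ratio differed by -2.42 ± 0.02 (limma adjusted p = 1.94e-12) and -2.50 ± 0.03 (limma adjusted p = 2.04e-14). As printed above, the copies differ at 29 coding bases, so reads of the pair could be assigned over most of their length.

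RPL15A remained the major copy throughout. It supplied 93.0%, 93.2% and 93.2% in NADcapPro of xrn1-H41A, against 98.7%, 98.7% and 98.8% in RNA-seq, and 88.7%, 89.5% and 88.6% in NADcapPro of WT, against 98.3%, 98.3% and 98.1% in RNA-seq. The ratio differed by -2.51 ± 0.03 (limma adjusted p = 4.02e-12) and -2.78 ± 0.05 (limma adjusted p = 8.57e-14). The RPL15 copies differ at 42 of 615 bases, and 79.0% of their 31-base stretches are their own.

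In other pairs the A copy was favoured. RPL16A, a copy of uL13, supplied 65.2%, 65.4% and 64.5% in NADcapPro of xrn1-H41A, against 37.1%, 37.9% and 37.5% in RNA-seq, and 70.4%, 70.0% and 69.4% in NADcapPro of WT, against 38.2%, 39.2% and 38.5% in RNA-seq. The RPL16 copies share no 31-base stretch. The ratio differed by 1.63 ± 0.02 (limma adjusted p = 1.67e-11) and 1.89 ± 0.03 (limma adjusted p = 1.89e-13).

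RPL40A supplied 71.6%, 73.4% and 73.1% in NADcapPro of xrn1-H41A, against 49.6%, 49.9% and 48.8% in RNA-seq, and 79.1%, 79.2% and 78.9% in NADcapPro of WT, against 50.5%, 53.2% and 54.2% in RNA-seq. Its ratio differed by 1.45 ± 0.04 (limma adjusted p = 3.14e-10) and 1.77 ± 0.05 (limma adjusted p = 9.58e-12), although both copies encode the same protein. RPL14A (1.12 ± 0.02 in xrn1-H41A and 1.495 ± 0.04 in WT) and, in WT alone, RPL9A (1.52 ± 0.05) followed. The own 31-base share is 67.2% for RPL40A, 66.9% for RPL40B, 50.1% for the RPL14 genes and 75.1% for the RPL9 genes.

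**Figure D5:**
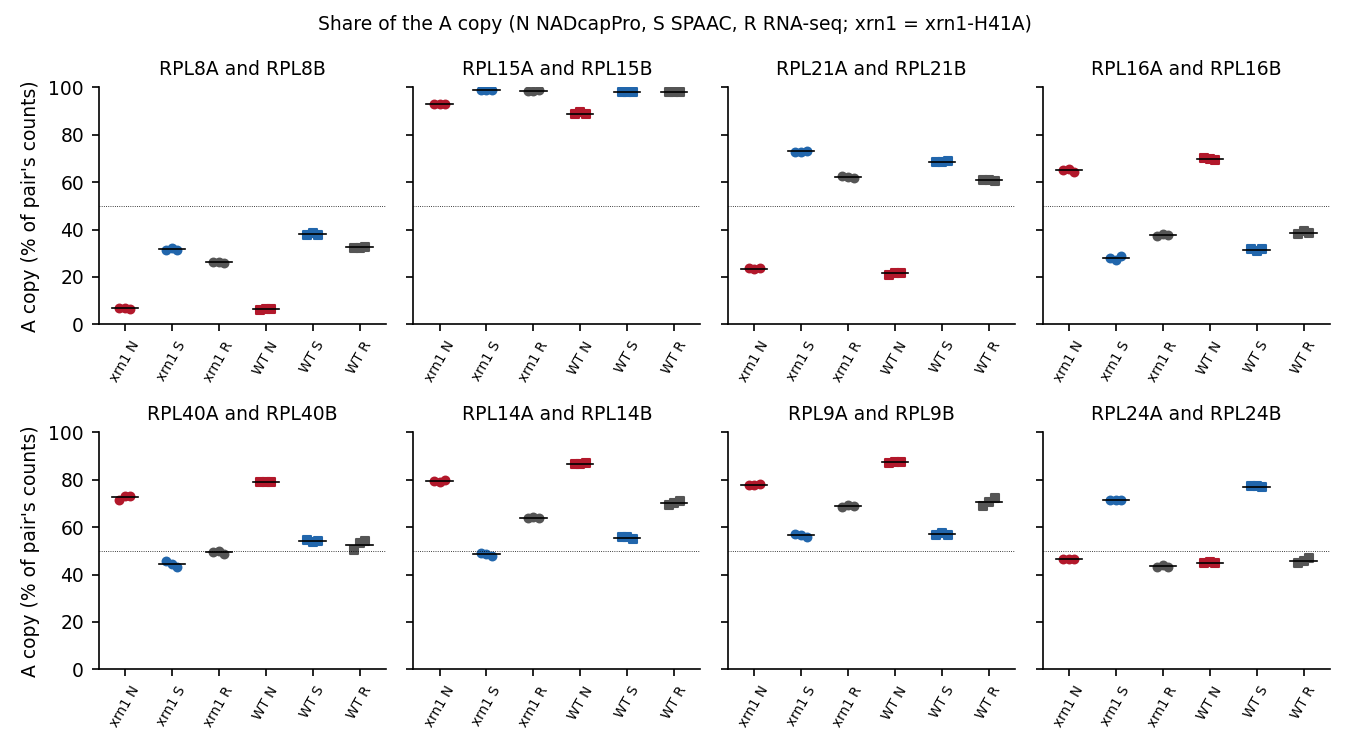
Share of the A copy in the summed counts of its pair (%) for 8 pairs, with 3 libraries per group (points) and their mean (lines); N is NADcapPro, S SPAAC and R RNA-seq, and circles are xrn1-H41A and squares WT. RPL21A lies at 21.0% to 23.7% in NADcapPro and at 60.5% to 62.5% in RNA-seq, while RPL24A stands apart in SPAAC.

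SPAAC separated another pair. RPL24A supplied 71.4%, 71.5% and 71.5% of the pair in SPAAC of xrn1-H41A, against 43.2%, 43.9% and 43.2% in RNA-seq, and 77.3%, 77.3% and 76.9% in SPAAC of WT, against 44.7%, 45.8% and 46.9% in RNA-seq. The ratio differed by 1.71 ± 0.02 (limma adjusted p = 7.38e-11) and 2.00 ± 0.04 (limma adjusted p = 5.63e-09), with 83.3% of 31-base stretches own. In NADcapPro RPL24A supplied 46.7%, 46.6% and 46.7% in xrn1-H41A and 45.03%, 45.2% and 44.7% in WT. The second pair called in SPAAC of WT was RPL41 (1.24 ± 0.12), whose copies can be told apart at 1 base, and it is left out when only pairs with at least 20% own stretches are tested.

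Between NADcapPro and SPAAC the same pairs led. RPL21 (-3.14 ± 0.02), RPL15 (-2.73 ± 0.06) and RPL8 (-2.70 ± 0.03) were the lowest in xrn1-H41A and RPL8 (-3.18 ± 0.03), RPL21 (-3.001 ± 0.03) and RPL15 (-2.63 ± 0.03) in WT. RPL16 (2.25 ± 0.03), RPL14 (2.04 ± 0.03) and RPL40 (1.73 ± 0.05) were the highest in xrn1-H41A and RPL14 (2.40 ± 0.03), RPL9 (2.39 ± 0.03) and RPL16 (2.34 ± 0.03) in WT. This comparison uses the NADcapPro libraries already set against RNA-seq, so its values are not a separate measurement of them.

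Few pairs differed 2-fold between the strains, while smaller differences were common. At any size, 20 of the 35 pairs differed in RNA-seq, against 57.4% of all pairs, and 30 in the interaction of strain and NADcapPro, against 80.3%. In RNA-seq RPL22 alone among the 35 pairs differed 2-fold, against 4.92% of all pairs. RPL22A supplied 81.4%, 81.6% and 81.5% in xrn1-H41A, against 92.4%, 91.7% and 91.9% in WT (log2 ratio -1.39 ± 0.03, limma adjusted p = 4.97e-09). In the interaction of strain and NADcapPro 1 pair, RPL33, passed (1.01 ± 0.05, limma adjusted p = 9.57e-11). It was the only pair called among all 61, so the share of all pairs (1.64%) is this same call. That value was at the threshold, and without the third WT RNA-seq library (0.99) or the first xrn1-H41A RNA-seq library (0.99) it was not called.

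Set beside other ribosomal proteins, the large-subunit genes as a group resembled those of the small subunit in each comparison. The medians of the 56 small-subunit genes were -0.74 and -0.16 in NADcapPro over RNA-seq of xrn1-H41A and WT, 0.75 and 0.68 in SPAAC over RNA-seq, and -1.74 and -1.04 in NADcapPro over SPAAC. No small-subunit gene was called higher in NADcapPro over RNA-seq (0 in each strain by edgeR), though the highest in WT, at 0.9999, lay just under the threshold. Large-subunit genes had 3 and 9 called higher (3.70% and 11.1%), against 14.3% and 13.1% of all transcripts. Called lower were 20 and 8 small-subunit genes (35.7% and 14.3%). The same shares were 37.0% and 13.6% for large-subunit genes and 9.87% and 9.85% for all transcripts. The 34 MRPL genes, nuclear genes for proteins of the mitochondrial large subunit, had medians of 0.41 and 0.51 in NADcapPro over RNA-seq, 0.59 and 0.56 in SPAAC over RNA-seq and -0.36 and -0.12 in NADcapPro over SPAAC. The difference between these groups of genes was not tested.

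Medians were also taken for large-subunit genes with and without an intron, with no test of the difference. In NADcapPro over RNA-seq the 53 with an intron had medians of -0.74 in xrn1-H41A and -0.06 in WT, and the 28 without had -0.87 and -0.49. In SPAAC over RNA-seq they had 0.79 and 0.66 with an intron, and 0.77 and 0.56 without. In NADcapPro over RNA-seq the 35 A copies had medians of -0.67 and 0.00 and the 35 B copies -0.84 and -0.12 in xrn1-H41A and WT.

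Genes that act on the family were taken from 3 lists. Of 11 regulators of ribosomal protein gene transcription, none was called in NADcapPro over RNA-seq of xrn1-H41A (0 by edgeR) and 2 fell in WT, against 9.85% of all transcripts, the co-activator IFH1 (-1.62 ± 0.04) and STB3 (-1.19 ± 0.05). In SPAAC over RNA-seq 4 fell in xrn1-H41A and 5 in WT, against 13.8% and 15.9% of all transcripts, among them SFP1 (-1.51 and -1.79) and TBF1 (-1.51 and -1.97). In NADcapPro over SPAAC 4 and 3 rose, against 18.7% and 13.3%, and none (0 and 0 by edgeR) fell. In RNA-seq, xrn1-H41A over WT, IFH1 (1.07 ± 0.05), CRF1 (1.11 ± 0.06), a co-repressor, and DOT6 (1.03 ± 0.05) rose and ABF1 (-1.19 ± 0.05) fell, against 7.69% and 2.53% of all transcripts.

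Of 5 dedicated chaperones of large-subunit proteins, BCP1, which serves the protein of RPL23A and RPL23B, fell in NADcapPro over RNA-seq of xrn1-H41A (-1.22 ± 0.04), against 9.87% of all transcripts, and none of the 5 was called in WT or in SPAAC over RNA-seq. All 5 fell in NADcapPro over SPAAC of xrn1-H41A and 1, BCP1, in WT, against 17.8% and 11.3% of all transcripts. Of 12 genes of subunit export and late maturation, MTR2, a partner of the mRNA exporter Mex67, rose in NADcapPro over RNA-seq of both strains (1.36 ± 0.04 and 1.43 ± 0.05) and ALB1 in WT (1.03 ± 0.04), against 14.3% and 13.1% of all transcripts. In SPAAC over RNA-seq 1 of the 12, RIA1, fell in WT (-1.07 ± 0.03), against 15.9%, and in NADcapPro over SPAAC of xrn1-H41A 4 fell and 1, MTR2, rose, against 17.8% and 18.7%. RPP1, the ribonuclease P gene that the symbol rule also found, had 0.89 ± 0.04 and 0.75 ± 0.04 in NADcapPro over RNA-seq and 0.49 ± 0.04 and 1.01 ± 0.04 in SPAAC over RNA-seq of xrn1-H41A and WT.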

How the data were processed

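The authors trimmed reads with fastp 0.23.2, removed those that hisat2 aligned to rRNA and deposited estimated counts per RefSeq R64 transcript from kallisto 0.48.0, rounded to whole numbers, with lengths and effective lengths. These estimated counts were used as deposited, and TPM was recomputed from them. The table holds 20 libraries. 2 of them, without ADPRC, could not be tied to a strain by their labels and were not used here. For each comparison, edgeR 4.0.16 (under R 4.3.3, TMM scaling, filterByExpr, quasi-likelihood) was run on the whole table for the libraries of the groups compared, and A to B ratios (pseudocount 0.5) with limma 3.58.1. Both were tested on simulated data with known changes. Thresholds of 2-fold and 0.01 follow the study's methods, and calls of any size were added after seeing the data. DESeq2 1.42.0 and the other settings of the closing section were alternatives. Standard errors of edgeR values were derived from its F statistic.

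Members, lists and tests were chosen with earlier results of these data known. Genes named are RPL21A and RPL21B, the stalk genes, genes chosen by role, and the 3 largest and 3 smallest changes per comparison whose groups did not overlap. Pairs named are the 3 largest called differences in each direction. Genes of the 3 lists are named where they were called. RPL15A and the genes named only as strain differences were chosen after their values were seen. Strain and replicate were taken from the labels, which number the replicates in each group. Per-library values use 1 TMM scaling over 18 libraries, so their ratios can depart from the fitted fold change by up to 0.21 on the log2 scale. Reads carry no molecular identifiers.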

Additional observations from a re-analysis of the deposited data

Results flagged for a closer look

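The following results differed between the strains by the test of the difference itself, the interaction of strain and assay in edgeR. The NADcapPro enrichment was lower in xrn1-H41A than in WT, on the log2 scale, for RPL23B (-1.36), RPL27A (-1.27), RPL29 (-1.24), RPL33B (-1.24), RPL43B (-1.15), RPL34A (-1.15), RPL13A (-1.12), RPL34B (-1.10), RPL11A (-1.09), RPL32 (-1.06), RPL36B (-1.06), RPL41B (-1.05), RPL8B (-1.05) and RPL9A (-1.03). RPL41B was not called without the second xrn1-H41A RNA-seq library (-0.99), and its copies differ at 1 coding base. Among the pairs, the A to B ratio of RPL33 differed by 1.01 by limma. No group held more than 3 libraries, so no library was tested as an outlier.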

How the results depend on the processing

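Percentages here are of the large-subunit genes tested, and the cause of a change was not tested unless stated. Scaling by library totals alone moved the median of all transcripts by 0.26 (xrn1-H41A) and 0.15 (WT) in NADcapPro over RNA-seq, -0.38 and -0.31 in SPAAC over RNA-seq, 0.81 and 0.61 in NADcapPro over SPAAC and 0.18 in RNA-seq between strains. Under it the median of WT NADcapPro over RNA-seq was 0.022 (-0.12 before). SPAAC over RNA-seq called 1.23% of genes higher in xrn1-H41A (27.2% before), and in WT 3.70% higher and 2.47% lower (23.5% and 1.23% before). NADcapPro over SPAAC called 4.94% higher and 49.4% lower in xrn1-H41A (1.23% and 75.3% before), and 13.6% higher and 27.2% lower in WT (3.70% and 50.6% before). The strain difference of NADcapPro was called lower for 9.88% (17.3% before). With the length trend removed, NADcapPro over RNA-seq called 1.23% higher and 61.7% lower in xrn1-H41A (3.70% and 37.0% before) and 3.70% higher and 33.3% lower in WT (11.1% and 13.6% before). SPAAC over RNA-seq called 2.47% higher and 1.23% lower in xrn1-H41A and 1.23% higher in WT, and the strain difference of NADcapPro 11.1% lower. The median strain difference of SPAAC, -0.01, was 0.0049 with library totals alone, 0.12 with the length trend removed, 0.063 with DESeq2 size factors and 0.063 with DESeq2. With paralogs summed into 46 units, which are fewer and merge the copies, NADcapPro over RNA-seq called 0% higher in xrn1-H41A and 8.70% lower in WT, SPAAC over RNA-seq 0% lower in WT, NADcapPro over SPAAC 0% higher in xrn1-H41A and 2.17% in WT, and RNA-seq between strains 0% higher. With all 18 libraries in 1 fit, SPAAC over RNA-seq of xrn1-H41A called 14.8% higher and NADcapPro over SPAAC 2.47% higher, a fit that moved the median of all transcripts by 0.21 in that comparison. With pairs of at least 20% own 31-base stretches, WT SPAAC over RNA-seq called 3.23% of pairs (5.71% before). Leaving out 1 library at a time gave 0% to 1.23% lower in WT SPAAC over RNA-seq, -0.030 to 0.11 for the median strain difference of SPAAC, and 0% to 2.86% of pairs for the strain difference of NADcapPro. Same-numbered replicates did not deviate together (correlations from -0.11 to 0.14 in NADcapPro over RNA-seq of xrn1-H41A and 0.02 to 0.08 in WT). Whether same-numbered libraries came from the same culture cannot be told from these values, and the main fits did not pair them. With the replicate block the counts were as before, 3.70% higher and 37.0% lower in xrn1-H41A NADcapPro over RNA-seq among them. Of 85 results for named genes and 29 for named pairs, none (0) changed direction under any setting run. The 85 are results that were called or were among the 3 largest or 3 smallest changes. Values of genes named by role that were not called lie outside this count, so it does not cover their direction.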
